A study of Mus musculus with 8 samples.

Results

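The 42 genes described here encode components of the PI3K, AKT, mTOR, AMPK and FOXO pathway, and they were chosen by name from 47937 genes in the deposited counts table. Each of the 42 had a row of its own, more than 0 reads in every library and enough reads to be tested. RNA came from CD8 single-positive (CD8SP) TCRβ+ MHC-I high thymocytes, sorted from the thymus of mice aged 6 to 7 weeks, with 1 library for each of 4 control and 4 knockout mice. Control mice (Ndrg3ctrl) had the genotype Ndrg3 +/fl;Lck-cre+ and knockout mice (Ndrg3TKO) the genotype Ndrg3 fl/fl;Lck-cre+, so that every mouse carried Lck-cre and the controls still had a floxed Ndrg3 allele. Cre was driven by the proximal Lck promoter, which is active in developing thymocytes, so the controls are heterozygous in these cells and not wild type. The labels name no treatment.

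PI3K at the plasma membrane makes the lipid that recruits the kinases PDK1 (gene Pdpk1) and AKT, and mTORC2 completes the activation of AKT. Active AKT releases mTORC1 from the TSC complex, which raises protein synthesis and growth, and it phosphorylates FOXO transcription factors, which then leave the nucleus. AMPK, with its activating kinase LKB1 (gene Stk11), and the stress-induced genes of the sestrin family and Ddit4 act against mTORC1. In maturing and naive T cells, Foxo1 is known to drive genes of homing and survival, among them Klf2, Ccr7 and Il7r. Much of this pathway is controlled by phosphorylation, which RNA levels do not measure.

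Total counts per library lay between 21126698 and 32668081, at which 3 counts correspond to 0.0918 to 0.142 CPM (counts scaled to the library total). The targeted gene Ndrg3 had 2294 to 2359 normalized counts in the 4 Ndrg3ctrl libraries and 1402 to 1601 in the 4 Ndrg3TKO libraries (log2 fold change -0.64, SE 0.053, adjusted p = 1.04e-05, edgeR). In the floxed allele, loxP sites flank a critical exon, whereas these counts take in reads from all exons of the gene. They therefore do not measure how complete the deletion was. The paper reports efficient depletion of Ndrg3 protein in thymocytes of Ndrg3TKO mice. The 12 genes fixed as markers of CD8 T cells summed to between 9226 and 10103 CPM in Ndrg3ctrl and between 9381 and 9985 CPM in Ndrg3TKO, with adjusted p-values of 0.619 or more. Cd4 stayed at or below 1.46 CPM, and the B cell gene Ms4a1 and the NK cell gene Ncr1 had 0 counts in every library. Summed levels of a list of 5 NK and innate-like T cell genes, most of it Klrd1, were 29.8 to 34.4 CPM in Ndrg3ctrl and 32.1 to 51.3 CPM in Ndrg3TKO. Of the markers of other cells, Klrb1c of this list was the 1 past the threshold, at 0.113 to 0.615 CPM in Ndrg3ctrl and 1.44 to 2.07 CPM in Ndrg3TKO (adjusted p = 0.0015, edgeR). Zbtb16 of the same list went the other way without overlap of the groups, reaching 0.333 CPM in Ndrg3ctrl and 0.0939 CPM in Ndrg3TKO. It had 33 reads over all libraries, too few to be tested. Fcer1g of this list had a log2 fold change of -0.032. Summed levels of 6 B cell genes, most of it Cd79b, were 11.3 to 13.7 and 8.79 to 9.71 CPM, and those of 8 myeloid and dendritic cell genes, most of it Cd74, were 20.1 to 23.7 and 17.5 to 19.8 CPM. The 6 genes of CD4SP and regulatory T cells summed to 12.6 to 20.1 and 16.6 to 24.9 CPM, with log2 fold changes of 0.53 for Foxp3 (adjusted p = 0.293) and 0.62 for Il2ra (adjusted p = 0.422, edgeR). The 7 genes of immature thymocytes summed to 52.4 to 61.9 and 50.1 to 65.0 CPM, and Dntt of this list, the terminal transferase, did not overlap between groups, at 14.1 to 18.6 and 18.7 to 25.5 CPM (log2 fold change 0.45, adjusted p = 0.0783, edgeR). The 7 genes of thymic stroma summed to 5.35 to 7.38 and 3.59 to 5.56 CPM, the 4 of gamma delta T cells to 10.9 to 14.04 and 10.3 to 14.4 CPM, and the 5 of erythroid cells to 0.0333 to 0.142 and 0.0313 to 0.232 CPM. Y-linked genes were expressed in 1 Ndrg3ctrl library (replicate 2) and 2 Ndrg3TKO libraries (replicates 2 and 3), and mitochondrial genes took 0.636% to 0.820% of the counts in Ndrg3ctrl and 0.571% to 0.712% in Ndrg3TKO. The part of these differences in the values given here was not tested beyond the comparison by Y-linked expression. In such bulk libraries, fewer cells of a type and less RNA per cell cannot be told apart.

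Levels of the pathway genes spanned more than 3 orders of magnitude on a scale that accounts for gene length (TPM, counts per exonic length, scaled to a common total). Pik3cd, the catalytic PI3K subunit most typical of lymphocytes, had the highest level, with 648 ± 50.6 TPM in Ndrg3ctrl and 641 ± 29.2 TPM in Ndrg3TKO (mean ± SD, n = 4 mice per group). Ddit4, a stress-induced inhibitor of mTORC1, followed with 283 ± 25.5 and 258 ± 34.8 TPM, and then Foxo1 with 207 ± 11.6 and 235 ± 7.17 TPM. Averaged over all libraries, 10 of the genes lay above 100 TPM, 28 between 10 and 100 TPM and 4 below 10 TPM. The 4 low genes were Phlpp1 (7.53 TPM in Ndrg3ctrl), which encodes a phosphatase of AKT, the translation repressor Eif4ebp1 (8.43 TPM), the sestrin Sesn2 (5.81 TPM) and Deptor (0.47 TPM), which encodes an inhibitor of mTOR. Deptor rested on 22 to 46 reads per library, whereas no other gene of the 42 had fewer than 105 reads in any library. Together the 42 genes took 6601 to 6782 CPM in Ndrg3ctrl and 6767 to 6914 CPM in Ndrg3TKO.

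**Figure D1:**
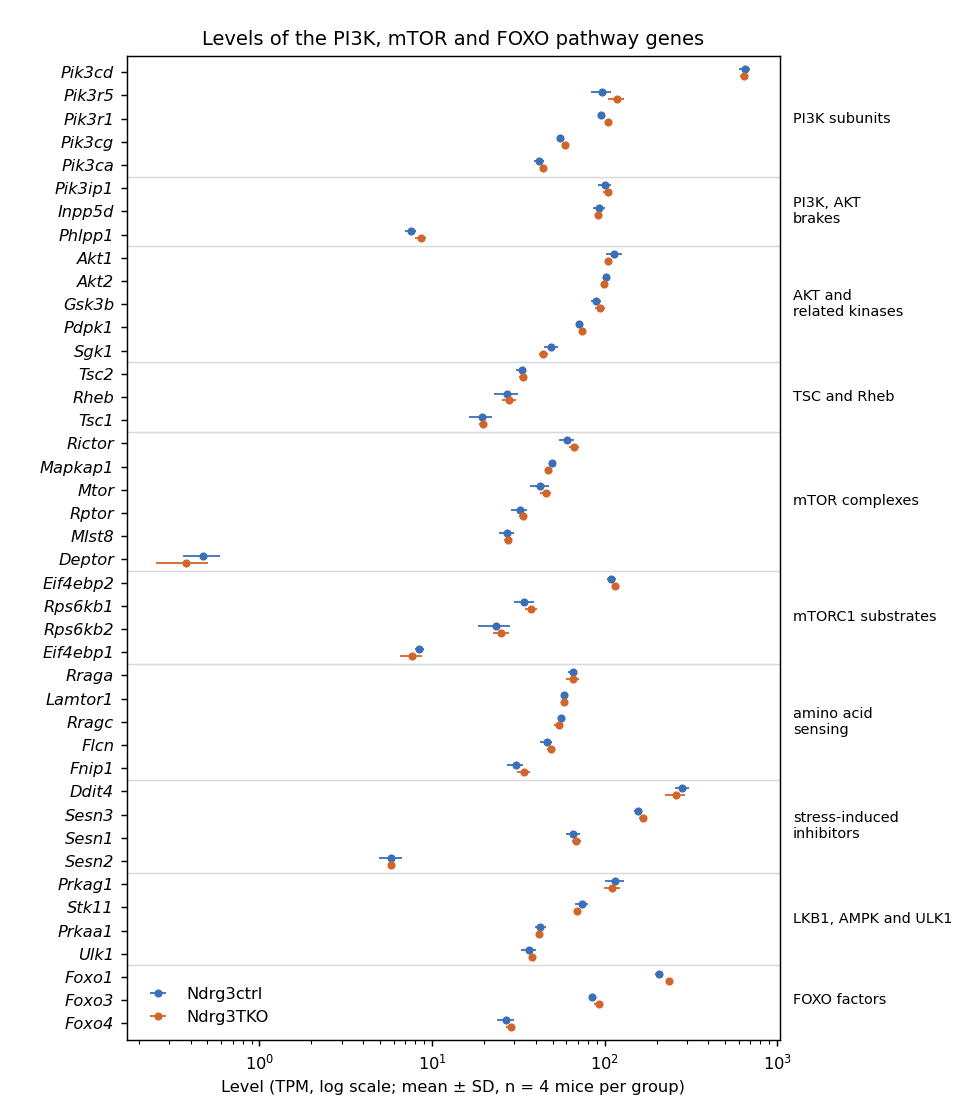
Level of each of the 42 pathway genes in TPM (log scale), grouped by role, as the mean with the SD over 4 mice for Ndrg3ctrl (blue) and Ndrg3TKO (orange). Pik3cd is highest at 648 and 641 TPM, Deptor is lowest at 0.47 and 0.38 TPM, and the means of the groups lie close together for each gene.

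Replicates of a group varied little in these genes. The coefficient of variation of the normalized counts (counts scaled by TMM library size) had a median of 6.19% over the 42 genes in Ndrg3ctrl and 4.27% in Ndrg3TKO. Leaving out Deptor, at 30.7% and 30.5%, it ranged from 0.902% for Akt2 in Ndrg3TKO to 17.8% for Eif4ebp1 in Ndrg3TKO.

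The knockout and control groups were compared gene by gene to ask whether loss of Ndrg3 went with altered expression of this pathway. None of the 42 genes passed an adjusted p of 0.05 in edgeR's quasi-likelihood test, where 168 of 14633 tested genes (1.15%) did, 116 of them higher (0.793%) and 52 lower (0.355%) in Ndrg3TKO. DESeq2 called 1 of the 42 genes, Pik3r5, where it called 309 of 14633 tested genes (2.11%). With the replicate number as a block, edgeR called 3 of the 42, Pik3r5, Foxo1 and Sgk1, where 5.47% of all tested genes passed. The labels do not say whether the numbers pair the mice. At an unadjusted p under 0.05 edgeR found 7 of the 42 genes (16.7%), against 10.9% of all tested genes. Of these 7, Pik3r5, Foxo1, Rictor and Fnip1 had higher means in Ndrg3TKO, and Sgk1, Stk11 and Akt1 had lower means, where 5.34% of all tested genes were higher and 5.51% lower at this level. This count varied with the library left out. It was 4 without Ndrg3ctrl replicate 1 (10.1% of all tested genes) and 3 without Ndrg3ctrl replicate 2 (8.82%). Without Ndrg3ctrl replicate 4 it was 4 (11%), without Ndrg3TKO replicate 1 it was 2 (8.32%) and without Ndrg3TKO replicate 3 it was 4 (9.02%). Without 1 of the other libraries it reached up to 7. The groups did not overlap for 2 of the 42 genes (4.76%), Pik3r5 and Rictor, against 7.04% of all tested genes (3.44% higher and 3.59% lower). With counts scaled by library totals alone the groups overlapped for both and did not overlap for 5 other genes, Pik3cg and Foxo1 with higher and Akt2, Mapkap1 and Stk11 with lower levels in Ndrg3TKO, where 6.79% of all tested genes did not overlap (3.31% higher and 3.48% lower).

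Differences in the pathway genes were small, and the libraries bounded most of them closely. Log2 fold changes ran from -0.36 for Deptor to 0.26 for Pik3r5, with 24 above and 18 below 0. Their median was 0.023, against -0.0033 over all tested genes, and the median of their absolute values was 0.065 against 0.088. The median SE was 0.059 for the pathway genes and 0.092 for all tested genes. For 32 of the 42 genes the 95% interval of the change lay within a 1.2-fold difference in either direction, which held for 42.9% of all tested genes. Pik3r5, Foxo1, Sgk1, Akt1, Phlpp1, Rps6kb2, Eif4ebp1, Sesn2, Ddit4 and Deptor were the 10 whose intervals reached beyond it. Within a 1.5-fold difference lay the intervals of 41 genes, all but Deptor. The values over all tested genes were not matched for read depth, as those genes reach down to the limit of the read filter.

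**Figure D2:**
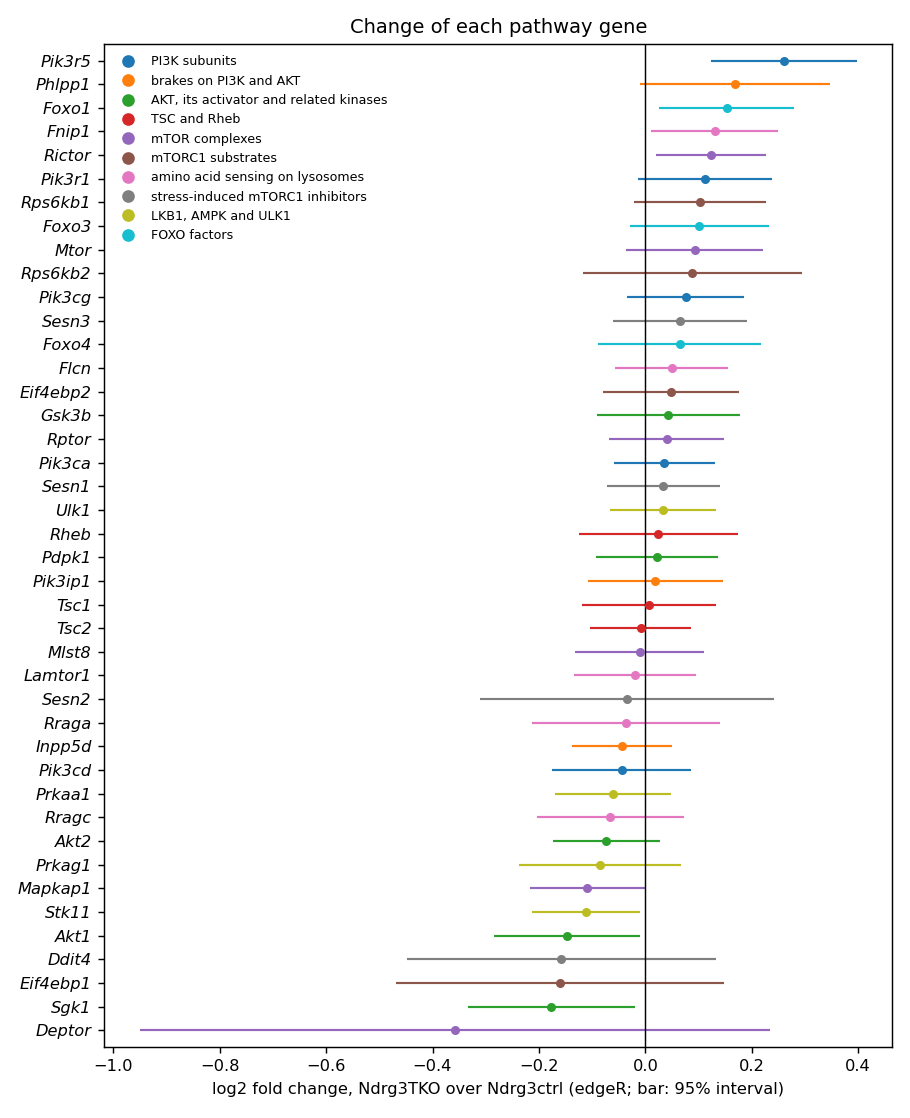
Log2 fold change of each of the 42 pathway genes, Ndrg3TKO over Ndrg3ctrl, with its 95% interval from edgeR (4 libraries per group) and colours for the role of the gene. Points run from -0.36 for Deptor, which has the widest interval, to 0.26 for Pik3r5.

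Among the PI3K subunits, Pik3r5 stood first of the 42 genes by p. It encodes a regulatory subunit that couples the class IB catalytic subunit Pik3cg to G protein-coupled receptors, and it lies on chromosome 11 (GRCm38 chr11:68432121-68497849, plus strand). Its normalized counts were 4217, 4606, 4709 and 4966 in Ndrg3ctrl replicates 1 to 4 and 5371, 5119, 6110.1 and 5551 in Ndrg3TKO replicates 1 to 4. Every Ndrg3TKO library thus lay above every Ndrg3ctrl library. The means of 4625 ± 311 and 5538 ± 421 (SD, n = 4) gave a log2 fold change of 0.26 (SE 0.064), or 19.7%, with an unadjusted p of 0.0011 and an adjusted p of 0.0779 (edgeR). It passed the threshold when Ndrg3TKO replicate 2 was left out (adjusted p = 0.0479), and ranged up to an adjusted p of 0.260 without Ndrg3TKO replicate 3. It also passed with DESeq2 (0.0149), without a filter on low counts (0.0047) and with Y-linked expression as a covariate (0.0472). Among libraries without Y-linked expression the log2 ratio of the group means was 0.24, and among those with it 0.29, with Ndrg3ctrl replicate 2 as the only control library.

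The other PI3K subunits differed less. Pik3cg, the catalytic partner of Pik3r5, had a log2 fold change of 0.076 (SE 0.051), and Pik3r1, the regulatory subunit of class IA PI3K, 0.11 (SE 0.059, adjusted p = 0.525). The catalytic subunits Pik3ca and Pik3cd stood at 0.036 (SE 0.044) and -0.044 (SE 0.061). Among the brakes on PI3K and AKT, the transmembrane inhibitor Pik3ip1 had a log2 fold change of 0.018 (SE 0.059) and the lipid phosphatase Inpp5d (SHIP) -0.044 (SE 0.044). Phlpp1 had 0.17 (SE 0.083, adjusted p = 0.492). None of these 7 genes passed the adjusted or the unadjusted threshold, and all 7 have intervals that include 0.

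Akt1, a central kinase of the pathway (chr12:112653821-112674884, minus strand), had 3783, 4606, 3716 and 4157 normalized counts in Ndrg3ctrl replicates 1 to 4 and 3537, 3759, 3693 and 3687 in Ndrg3TKO replicates 1 to 4. Ndrg3ctrl replicates 2 and 4 were the highest, and the groups overlapped. Its means of 4065 ± 409 and 3669 ± 94.0 gave a log2 fold change of -0.15 (SE 0.064, unadjusted p = 0.0379, adjusted p = 0.422, edgeR), which was -0.084 without Ndrg3ctrl replicate 2. The log2 ratio of the group means was -0.11 among libraries without Y-linked expression and -0.31 among those with it. In the latter class Ndrg3ctrl replicate 2 was the only control library, so that ratio rests on it. Sgk1 encodes a kinase related to AKT that mTORC2 activates and that also phosphorylates FOXO factors (chr10:21882184-21999903, plus strand). It had 2176, 2251, 1812 and 2136 normalized counts in Ndrg3ctrl and 1725, 2035, 1741 and 1901 in Ndrg3TKO, in the order of replicates. Ndrg3ctrl replicate 3 was low and lay among the Ndrg3TKO libraries. The means of 2094 ± 194 and 1850.4 ± 147 gave a log2 fold change of -0.18 (SE 0.073, unadjusted p = 0.0295, adjusted p = 0.390). Akt2 (-0.073, SE 0.047), Pdpk1 (0.023, SE 0.054) and Gsk3b (0.043, SE 0.063), a kinase that AKT inhibits, had log2 fold changes nearer to 0. For Tsc1 and Tsc2, which form the TSC complex, they were 0.0072 (SE 0.059) and -0.0090 (SE 0.045), and for Rheb, the GTPase that TSC inhibits and that activates mTORC1, 0.024 (SE 0.070).

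In the mTOR complexes, members specific to mTORC2 had opposite signs. Rictor, the scaffold of mTORC2 (chr15:6708379-6800401, plus strand), had 8621, 8579, 9188 and 8993 normalized counts in Ndrg3ctrl replicates 1 to 4 and 9665, 9218, 9814 and 9837 in Ndrg3TKO replicates 1 to 4. The groups did not overlap, and the nearest libraries were Ndrg3ctrl replicate 3 and Ndrg3TKO replicate 2. Means of 8845 ± 294 and 9634 ± 288 gave a log2 fold change of 0.12 (SE 0.049, unadjusted p = 0.0236, adjusted p = 0.355, edgeR). Mapkap1, which encodes the mTORC2 subunit SIN1 (chr2:34406771-34624950, plus strand), had 1768, 1793, 1799 and 1631 normalized counts in Ndrg3ctrl and 1599, 1628, 1642 and 1613 in Ndrg3TKO. Only Ndrg3ctrl replicate 4 lay among the Ndrg3TKO libraries. Its means were 1748 ± 78.9 and 1621 ± 18.8, with a log2 fold change of -0.11 (SE 0.051, unadjusted p = 0.0501, adjusted p = 0.461). The kinase Mtor itself stood at 0.092 (SE 0.060), the mTORC1 scaffold Rptor at 0.040 (SE 0.050), the shared subunit Mlst8 at -0.011 (SE 0.057) and Deptor at -0.36 (SE 0.28). Among the substrates of mTORC1, Rps6kb1 and Rps6kb2, which encode the ribosomal protein S6 kinases, had log2 fold changes of 0.10 (SE 0.058) and 0.088 (SE 0.095), and the translation repressors Eif4ebp1 and Eif4ebp2 had -0.16 (SE 0.14) and 0.048 (SE 0.060).

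**Figure D3:**
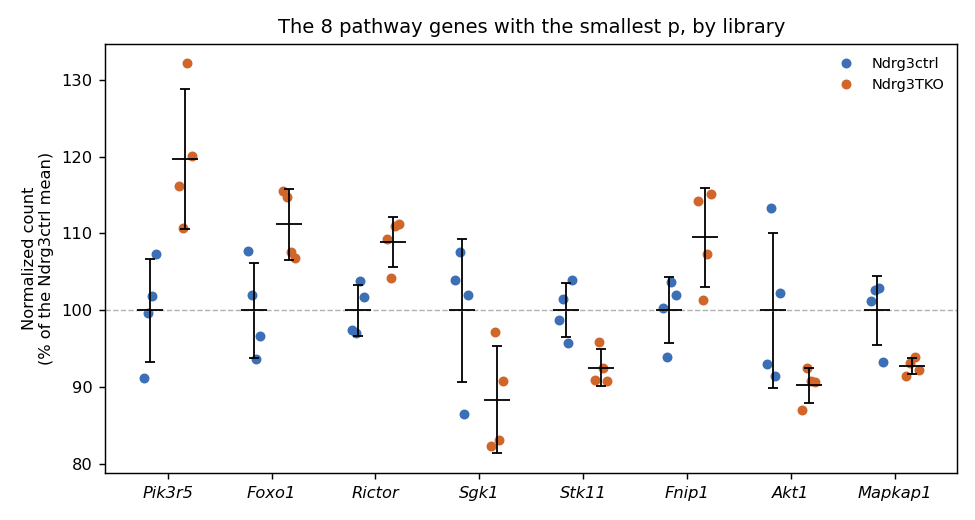
Normalized counts of the 8 pathway genes with the smallest p, as a percentage of the Ndrg3ctrl mean of each gene, with 1 point per library and the mean and SD of each group (n = 4). The vertical axis does not start at 0. Only for Pik3r5 and Rictor do all Ndrg3TKO points lie on the same side of all Ndrg3ctrl points.

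On the lysosome, where mTORC1 senses amino acids, Fnip1 was the gene with the smallest p. It encodes the partner of folliculin (chr11:54438199-54518235, plus strand), and it had 1888, 1768, 1953 and 1921 normalized counts in Ndrg3ctrl replicates 1 to 4 and 2151, 1907, 2020.3 and 2166 in Ndrg3TKO replicates 1 to 4. Ndrg3TKO replicate 2 lay below Ndrg3ctrl replicates 3 and 4. The means of 1882 ± 80.9 and 2061 ± 122 gave a log2 fold change of 0.13 (SE 0.056, unadjusted p = 0.0359, adjusted p = 0.414, edgeR). Folliculin itself, Flcn, had 0.049 (SE 0.050), the Rag GTPases Rraga and Rragc had -0.036 (SE 0.082) and -0.066 (SE 0.064), and Lamtor1, which anchors the Rag GTPases to the lysosome, had -0.020 (SE 0.053). For the stress-induced inhibitors of mTORC1 the values were 0.034 (SE 0.050) for Sesn1, -0.035 (SE 0.13) for Sesn2, 0.065 (SE 0.058) for Sesn3 and -0.16 (SE 0.13) for Ddit4.

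In the AMPK branch, Stk11, the gene of the kinase LKB1 (chr10:80115803-80130682, plus strand), had 2893, 2971, 2805 and 3043 normalized counts in Ndrg3ctrl replicates 1 to 4 and 2663, 2809, 2709 and 2657 in Ndrg3TKO replicates 1 to 4. The highest Ndrg3TKO library, replicate 2, exceeded only the lowest Ndrg3ctrl library, replicate 3. Means of 2928 ± 102 and 2709 ± 70.2 gave a log2 fold change of -0.11 (SE 0.047, unadjusted p = 0.0327, adjusted p = 0.404, edgeR). The AMPK catalytic subunit Prkaa1 stood at -0.061 (SE 0.051), the regulatory subunit Prkag1 at -0.085 (SE 0.071) and Ulk1, the autophagy kinase that AMPK activates and mTORC1 inhibits, at 0.033 (SE 0.046).

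All 3 FOXO factors had higher means in Ndrg3TKO. Foxo1 (chr3:52268336-52353221, plus strand) had 16791, 15899, 14614 and 15077 normalized counts in Ndrg3ctrl replicates 1 to 4 and 18014, 17904, 16779 and 16659 in Ndrg3TKO replicates 1 to 4. Ndrg3ctrl replicate 1 exceeded Ndrg3TKO replicates 3 and 4, and the other Ndrg3ctrl libraries lay below every Ndrg3TKO library. The means of 15595 ± 958 and 17339 ± 719 gave a log2 fold change of 0.15 (SE 0.059), or 11.2%, with an unadjusted p of 0.0212 and an adjusted p of 0.342 (edgeR). Foxo3 had a log2 fold change of 0.10 (SE 0.061, adjusted p = 0.586) and Foxo4 of 0.064 (SE 0.071, adjusted p = 0.797). In libraries without Y-linked expression the log2 ratio for Foxo1 was 0.16, and in those with it 0.13, with Ndrg3ctrl replicate 2 as the only control library. Foxo1 shares 674 of its 8665 exonic bases, and Stk11 232 of 4580, with a gene on the opposite strand, and whether the counting used strand is not given in the sources used here. Such overlaps exist for 12 of the 42 genes, and an overlap on the same strand for 0.

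The make-up of gene families was compared as the share of the leading gene in the summed TPM of its family, in 7 families. Pik3cd made up 86.5% ± 0.54 of the catalytic subunits Pik3ca, Pik3cb, Pik3cd and Pik3cg in Ndrg3ctrl and 85.6% ± 0.43 in Ndrg3TKO (SD, n = 4, p = 0.0571, adjusted over the 7 families 0.20, 2-sided exact permutation test). Rictor made up 65.2% ± 0.32 of Rictor and Rptor in Ndrg3ctrl and 66.5% ± 1.11 in Ndrg3TKO, with the same p-values. Foxo1 made up 65.0% ± 0.98 and 66.0% ± 0.86 of the 3 FOXO genes, and Sesn3 68.7% ± 1.28 and 69.2% ± 1.10 of the 3 sestrins. Pik3r5 exceeded 99.9% of its pair with Pik3r6 in every library. No family passed the threshold, and 0.0286 is the smallest p that 4 libraries against 4 can give. At this p a single family stays above 0.05 once adjusted over the 7 families. The comparison could therefore not detect a change confined to a single family. The share of Pik3r5 had almost no room to differ, as Pik3r6 had at most 3 reads in a library.

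Promoters were searched for the letters that FOXO factors bind, TGTTTAC (or GTAAACA on the other strand), and for TCACGTG (or CACGTGA), a core of the element through which TFEB and TFE3 act on lysosomal genes. RefSeq gave the 250 bases before a transcription start (GRCm38.p6) for 38 of the 42 genes. These had 54 listed promoters, and a gene counted when any of its promoters held the letters. The number of promoters per gene was not matched in the comparison with all genes. The FOXO letters occurred before a start of 3 of these 38 genes (7.89%), Pik3cg, Akt1 and Mapkap1, against 3.54% of 27025 genes with a promoter. TCACGTG occurred for 5 genes (13.2%), Sgk1, Rheb, Rragc, Lamtor1 and Fnip1, against 3.58% of all genes. The promoter of Pik3r5, the gene with the smallest p, held neither, and it is shown with that of Akt1 and Mapkap1, which carry the FOXO letters among the 8 genes followed by library, and that of Fnip1, which carries the other motif. Each is printed 5′ to 3′ on the strand of its gene, with matches in capitals.
Pik3r5, chr11:68431875-68432124, plus strand: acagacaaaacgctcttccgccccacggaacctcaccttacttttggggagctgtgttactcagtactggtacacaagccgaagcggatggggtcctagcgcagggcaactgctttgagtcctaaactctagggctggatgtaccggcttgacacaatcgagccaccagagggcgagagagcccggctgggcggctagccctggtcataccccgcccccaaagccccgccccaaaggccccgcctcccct
Akt1, chr12:112674885-112675134, minus strand: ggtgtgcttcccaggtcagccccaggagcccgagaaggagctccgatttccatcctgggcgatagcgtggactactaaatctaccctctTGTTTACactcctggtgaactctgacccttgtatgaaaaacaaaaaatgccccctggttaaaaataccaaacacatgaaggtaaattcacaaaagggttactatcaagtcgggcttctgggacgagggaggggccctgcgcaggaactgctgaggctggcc
Mapkap1, chr2:34406601-34406850, plus strand: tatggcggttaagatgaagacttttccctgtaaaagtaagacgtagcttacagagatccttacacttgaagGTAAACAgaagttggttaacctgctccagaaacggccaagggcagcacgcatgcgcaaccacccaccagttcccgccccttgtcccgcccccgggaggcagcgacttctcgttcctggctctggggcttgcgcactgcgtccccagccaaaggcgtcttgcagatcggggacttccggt
Fnip1, chr11:54437929-54438178, plus strand: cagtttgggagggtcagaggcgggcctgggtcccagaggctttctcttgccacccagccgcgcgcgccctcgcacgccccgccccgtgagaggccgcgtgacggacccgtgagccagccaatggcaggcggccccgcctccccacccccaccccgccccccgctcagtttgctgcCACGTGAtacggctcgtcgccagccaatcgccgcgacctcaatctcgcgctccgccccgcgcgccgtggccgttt
The match lay 161 to 155 bases before the start in Akt1, 179 to 173 in Mapkap1 and 75 to 69 in Fnip1. The same Mapkap1 letters lay 99 to 93 bases before its other listed start, which is the gene position given above. Another listed promoter of Akt1 (chr12:112674277-112674526) held no match. Of the 3 genes with the FOXO letters, Akt1 and Mapkap1 had lower means in Ndrg3TKO and Pik3cg a higher one (log2 fold change 0.076). Of the 5 with TCACGTG, Fnip1 and Rheb (0.024) had higher means. Sgk1 (-0.18, also among the 8 genes followed by library but not printed), Rragc (-0.066) and Lamtor1 (-0.020) had lower ones. None of them passed the adjusted threshold in the edgeR fit by group. A match describes the letters in this window only.

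In the edgeR fit by group, further genes of the same pathway did not pass the threshold either. A list of 80 further PI3K, mTOR, AMPK and FOXO pathway genes had 79 in the table and 72 with enough reads. Of these, 0 passed the adjusted threshold with edgeR, beside 1.15% of all tested genes, and 0 with DESeq2, beside 2.11%. At an unadjusted p under 0.05 there were 6 (8.33%), against 10.9% of all tested genes. The median log2 fold change of the 72 was -0.026, with 30 above and 42 below 0. Sgk3, a kinase of the AKT and SGK family, had the smallest p, with 2208 to 2697 normalized counts in Ndrg3ctrl and 2804 to 3006 in Ndrg3TKO, so that the groups did not overlap (log2 fold change 0.19, SE 0.062, adjusted p = 0.210, edgeR). With Y-linked expression as a covariate Sgk3 passed it (0.23, adjusted p = 0.0183), where 2.99% of all tested genes did. The next were the pseudokinase gene Trib1 (0.39, SE 0.13, adjusted p = 0.264), the PI3K adaptor Pik3ap1 (-0.63, SE 0.22, adjusted p = 0.270), the regulatory subunit Pik3r3 (-0.28, SE 0.10, adjusted p = 0.299) and Strada, whose product activates LKB1 (0.15, SE 0.059, adjusted p = 0.345). With the replicate number as a block in edgeR, Sgk3 (adjusted p = 0.0169) and Trib1 (0.0391) passed the threshold, where 5.47% of all tested genes did.

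Genes known as FOXO targets were examined as a readout downstream of the pathway. The list was chosen with earlier results of these data known, so its shares beside those of all tested genes are descriptive. Of 16 listed, all but Rag2 had enough reads, and 1 of the 15 (6.67%) passed the adjusted threshold, beside 1.15% of all tested genes. That gene was Bcl6, which encodes a transcriptional repressor of lymphocytes. It had 907, 735, 889 and 872 normalized counts in Ndrg3ctrl replicates 1 to 4 and 1473, 1202, 1347 and 1157 in Ndrg3TKO replicates 1 to 4. It rose from 851 ± 78.4 to 1295.0 ± 144 (log2 fold change 0.60, SE 0.086, adjusted p = 0.0022, edgeR), without overlap of the groups, and its adjusted p stayed between 0.0029 and 0.0119 whichever library was left out.

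Of the 15 target genes, 5 (33.3%) had an unadjusted p under 0.05, against 10.9% of all tested genes, and besides Bcl6 these had lower means in Ndrg3TKO. As the list was chosen with earlier results known, this share does not test for an excess. Klf2, a transcription factor of quiescence and homing, had 9602, 10636, 8545 and 9704 normalized counts in Ndrg3ctrl replicates 1 to 4 and 8147, 8923, 7447 and 7700.4 in Ndrg3TKO replicates 1 to 4, so that only Ndrg3ctrl replicate 3 lay within the range of Ndrg3TKO. Its log2 fold change was -0.26 (SE 0.071, adjusted p = 0.130, edgeR). The chemokine receptor Ccr7, which guides naive T cells to lymph nodes, had 11318 to 14107 normalized counts in Ndrg3ctrl and 9689 to 11377 in Ndrg3TKO (-0.26, SE 0.074, adjusted p = 0.135). For S1pr1, the receptor for exit from the thymus, the ranges were 10414 to 12373 and 9484 to 10569 (-0.19, SE 0.060, adjusted p = 0.203). Cdkn2d, a cell cycle inhibitor, had 1658 to 1934 and 1509.9 to 1704 (-0.16, SE 0.060, adjusted p = 0.304). The ranges of the groups overlapped for these 4 genes. Klf2, Ccr7 and S1pr1 passed the threshold when Y-linked expression was a covariate, with adjusted p-values of 0.0323, 0.0186 and 0.0307, where 2.99% of all tested genes did. These genes also passed it with the replicate number as a block (adjusted p = 0.000472, 0.000607 and 0.0167, edgeR), where 5.47% of all tested genes did. Without a filter on low counts in edgeR, 3 of the then 16 tested target genes passed it, Bcl6, Klf2 (0.0207) and Ccr7 (0.0223), where 1.11% of all tested genes did. The median log2 fold change of the 15 target genes was -0.11, with 5 above and 10 below 0, and these genes share libraries, so they are not independent of each other.

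**Figure D4:**
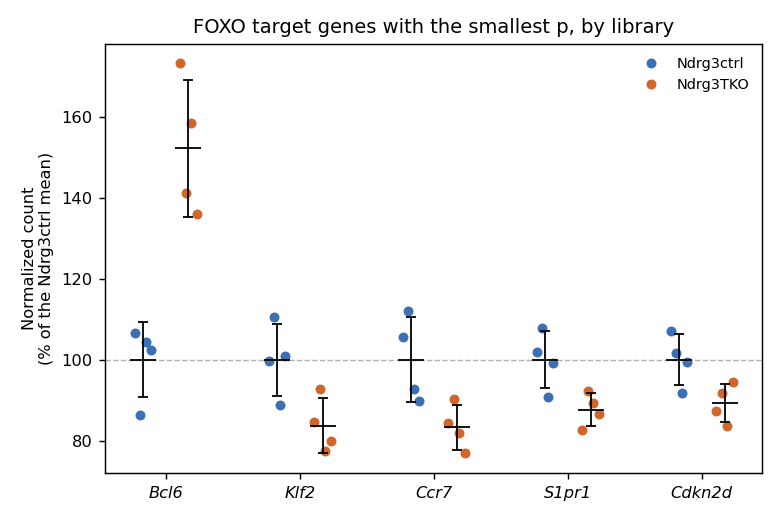
Normalized counts of the 5 FOXO target genes with the smallest p, as a percentage of the Ndrg3ctrl mean of each gene, with 1 point per library and the mean and SD of each group (n = 4). The vertical axis does not start at 0. Bcl6 lies higher in all 4 Ndrg3TKO libraries, and Klf2, Ccr7, S1pr1 and Cdkn2d have lower means with overlapping ranges.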

How the data were processed

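RNA was sequenced from sorted CD8SP TCRβ+ MHC-I high thymocytes of 4 Ndrg3ctrl and 4 Ndrg3TKO mice, grouped and numbered by their labels. Libraries were made with the Illumina Stranded Total RNA kit with Ribo-Zero Plus. The authors ran snakePipes, with cutadapt for trimming, STAR for alignment to GRCm38.p4 (GENCODE M9) and featureCounts for counting, and deposited whole-number counts per gene without normalization. The strand setting and the handling of multi-mapped reads are not given in the sources used here. All sample columns were used, and no library duplicated another.

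After filterByExpr (by group) and TMM scaling, the groups were compared with edgeR 4.0.16 (robust glmQLFit, then glmQLFTest, 2-sided, limma 3.58.1, R 4.3.3), with Benjamini-Hochberg adjustment over all 14633 tested genes and a threshold of 0.05. The study's methods name no block or covariate. SEs were derived from the size of the log2 fold change and the F statistic, and intervals are at 95%. To obtain normalized counts, each count was divided by its library's TMM-scaled size, and the quotient was brought to the average total of the libraries. TPM, positions and overlaps used GENCODE M21 (GRCm38), matched by Ensembl identifier for 47224 genes (98.5%). Single values were compared by 2-sided exact permutation tests over the 70 assignments of 8 libraries to groups of 4. The scripts were tested on simulated data. The floor of 3 counts covers counting error only.

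Alternatives were DESeq2 1.42.0, its size factors or library totals in edgeR, no filter or at least 10 counts in every library, a replicate block, Y-linked expression (over 1 CPM) as a covariate, and each library left out. A fit of the libraries without Y-linked expression was chosen after seeing the data. The genes and lists were chosen with earlier results of these data known. By rule, all 42 genes are named, the 8 with the smallest p are given by library because none passed the threshold, and up to 5 with the smallest p are named from each other list. Some genes of the lists are not reported here.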

Additional observations from a re-analysis of the deposited data

Results flagged for a closer look

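In each group of 4 libraries, the highest or lowest value was compared with the others by its gap to the nearest, divided by the range (Dixon's test at its 95% critical value). Of 110 groups of values checked, 3 exceeded it, where chance gives about 1 in 20, or 5.5. Tsc2 had 2848 normalized counts in Ndrg3TKO replicate 1, where the other 3 libraries of the group had 2694 to 2718. Sesn1 had 2354 normalized counts in Ndrg3ctrl replicate 4, against 2243 to 2256 in the others. Mitochondrial genes took 0.636% of the counts in Ndrg3ctrl replicate 4, against 0.803% to 0.820% in the others.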

How the results depend on the processing

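The number of called genes was 168 over all genes and moved to 274 without a filter on low counts, 309 with DESeq2, 437 with Y-linked expression as a covariate and 92 in the libraries without Y-linked expression, a setting chosen after seeing the data. It ranged from 90 to 158 when 1 library was left out. Of the 42 pathway genes 0 passed the threshold, and Pik3r5 was the 1 that did without a filter, with DESeq2, with the Y-linked covariate and without Ndrg3TKO replicate 2, so that the range over left-out libraries was 0 to 1. The 7 genes at an unadjusted p under 0.05 (10.9% of all tested genes) became 11 with the Y-linked covariate (18.2%), 4 in the libraries without Y-linked expression (9.13%) and 2 to 7 with 1 library left out (8.32% to 12.2%). The 2 genes without overlap became 5 under library totals. Of the other pathway genes, 1 passed with the Y-linked covariate in place of 0, Sgk3. Of the FOXO target genes, 3 passed without a filter (1.11% of all tested genes) and 4 with the Y-linked covariate (2.99%), in place of 1 (1.15%). The cause of these shifts was not tested.

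Same-numbered libraries of the groups correlated, in their deviations from the group means, between -0.055 and 0.42 (mean 0.21), with 3 of 4 pairs above 0.1, and 6 of 8 libraries correlated best with their own number, a hint of pairing from the data. The labels do not say what a number marks, and because the third pair lay below 0.1 the numbers were not taken to pair the mice. The libraries of that pair differed in Y-linked expression, at 0.0681 CPM in Ndrg3ctrl replicate 3 and 416 CPM in Ndrg3TKO replicate 3. Whether this lowered their correlation was not tested, so pairing stays undecided. The columns of the deposited counts are named by numbers. These lie close together for the libraries of replicate 1 in both groups, for those of replicates 2 and 3, and for those of replicate 4. What the column numbers mark is not stated, and no fit used them. With the replicate block there were 800 called genes (5.47%), 3 pathway genes past the threshold (Pik3r5, adjusted p = 0.0015, Foxo1, 0.0283, and Sgk1, 0.0381), 14 pathway genes at an unadjusted p under 0.05 (19.4% of all tested genes), 2 other pathway genes (Sgk3, 0.0169, and Trib1, 0.0391) and 4 FOXO targets (Bcl6, 5.2e-06, Klf2, 0.000472, Ccr7, 0.000607, and S1pr1, 0.0167).

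Over all alternatives, 648 of the values of single pathway genes kept their direction and their side of the threshold, 7 passed it and 17 changed sign, in genes close to 0. With 1 library left out, the log2 fold change ranged from -0.028 to 0.062 for Pik3ip1, -0.014 to 0.048 for Pdpk1, -0.00063 to 0.089 for Gsk3b, -0.025 to 0.051 for Tsc1, -0.034 to 0.064 for Rheb, -0.040 to 0.0075 for Mlst8, -0.10 to 0.035 for Rraga, -0.056 to 0.0016 for Lamtor1 and -0.10 to 0.056 for Sesn2. In the libraries without Y-linked expression it was 0.014 for Tsc2 and 0.0084 for Rraga. Ndrg3 stayed past the threshold in every alternative, between -0.67 and -0.60. Without division by length, 4 of the 10 genes with the highest levels remained among the highest 10. Depth limits Deptor, whose 22 to 46 reads give the widest interval.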
